A study of Mus musculus with 24 samples.

Results

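The net change in RNA from day 0 to day 3 of optic vesicle (OV) organoid culture was measured in 6 of the 24 libraries of the time course, 3 replicates of each day. Both groups held live cells of Rx-GFP K/I EB5, a mouse embryonic stem cell (mESC) line in which GFP is knocked in at Rax, the gene of a transcription factor of the eye field. Before differentiation the cells had been kept without feeders in GMEM with knockout serum replacement, FCS and LIF. On day 0 they were plated to aggregate in GMEM with less serum replacement, and growth factor-reduced Matrigel was added on day 1. That medium is as the labels give it, whereas the study's text describes a chemically defined one. No group had another treatment. Every sample was pooled from 24 organoids, dissociated and sorted for live cells, and no gate on GFP was used before day 4. Members were chosen by their labels alone: the 3 libraries labelled day 0 and the 3 labelled day 3. The comparison covered the 21005 of 49705 gene entries that reached 10 normalized counts in 3 or more libraries of the time course.

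Mouse ES cells in medium with LIF resemble the naive epiblast of the blastocyst. LIF acts through its receptor and the transcription factor STAT3 to keep naive genes on. When LIF is withdrawn, naive factors are lost, the cells pass through a formative state marked by Fgf5, Otx2 and the de novo DNA methyltransferases, and only then become competent for neural plate, primitive streak or germ line. In a neural culture the anterior neural plate forms next, and the eye field within it is specified by Rax, Six3, Pax6 and Lhx2.

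Estimated depth was 3.7e+07 to 5e+07 reads per library and normalized counts summed to 44425044 to 51587535. Day 0 replicate 1 stood apart: its Spearman correlation with the other day 0 libraries was 0.954 and 0.953, against 0.988 between those, and 0.981 to 0.991 among the day 3 libraries. In that library 1370 entries lay more than 2 on the log2 scale from the mean of the other day 0 libraries, against 530 and 575 entries for replicates 3 and 2. It listed 27 entries at 0 that had at least 100 normalized counts in both others, 20 of them pseudogenes. The 13 mitochondrially encoded genes summed to 3074322 normalized counts there, against 1119297 and 991867 in the others, and on day 3 to 766811, 2762810 and 2006498. The part of these differences in any result was not tested. Calls of named genes that changed without day 0 replicate 1 are given below, beside the gene or in the last paragraph. Other list members whose call changed are only counted there. The study describes the replicates as biological triplicates of organoid cultures. In pooled cells, fewer cells that express a gene and less RNA per cell cannot be told apart.

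A gene was called when its adjusted p was under 0.001 and its log2-fold-change, day 3 minus day 0 on the log2(normalized count + 1) scale, exceeded 1.5 in size. This scale understates the change of genes with low counts. By this rule 1241 entries rose, 5.91% of those tested, and 1286 fell, 6.12% of those tested. These shares stand beside every count of list members below. The median change over all entries tested was -0.03. Among risen entries the median size was 2.27, with 256 over 3 and 26 over 5. Among fallen entries it was 2.61, with 444 over 3 and 35 over 5. All 1286 fallen entries and 1238 of the 1241 risen ones had groups that did not overlap, which also held for 8815 entries (42%) of all tested. Protein-coding entries made up 90.4% of the risen, 76.8% of the fallen and 78.6% of all tested. Without day 0 replicate 1, 1330 entries rose and 1276 fell. A fit of only these 6 libraries called 263 higher and 293 lower, and of the 5 without day 0 replicate 1 it called 700 and 682, and the cause of these differences was not tested.

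**Figure D1:**
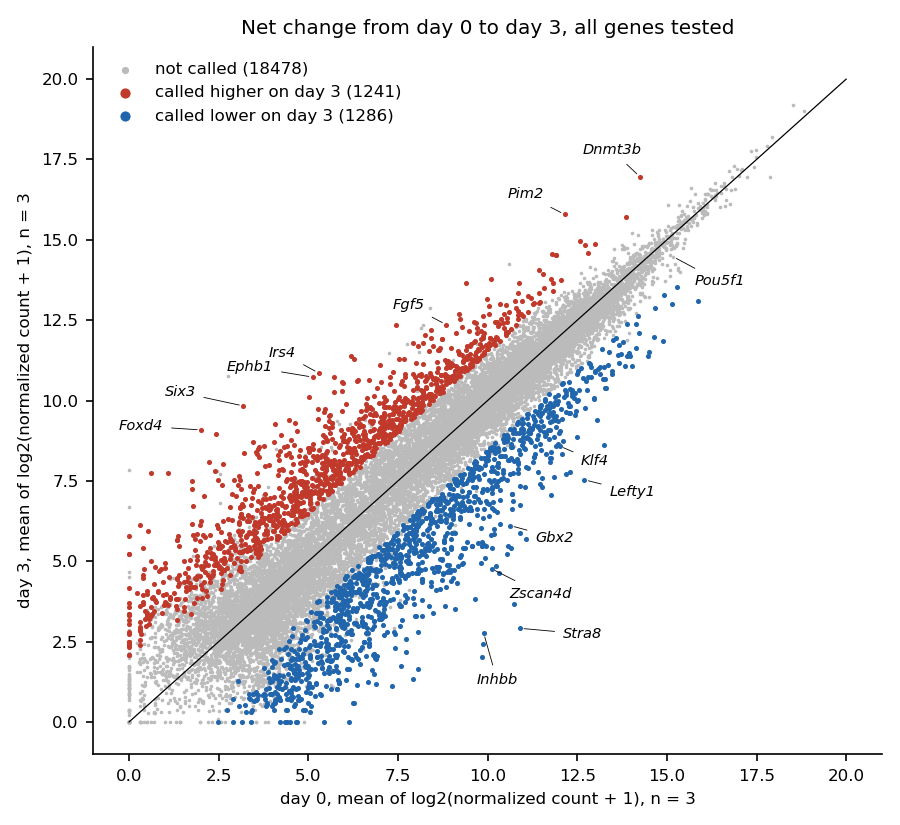
Mean of log2(normalized count + 1) over the 3 day 0 libraries (x axis) and the 3 day 3 libraries (y axis) for the 21005 entries tested. Red points are the 1241 called higher, blue points the 1286 called lower, grey points those not called, and the line marks equal values. Six3, Foxd4, Irs4 and Ephb1 lie far above the line at low day 0 levels, and Stra8, Inhbb, Zscan4d and Lefty1 far below it.

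The 12 largest falls include genes known from germ cells, early embryos and immune cells. Stra8, required for meiotic entry in germ cells, had 2543, 1492 and 1835 normalized counts on day 0 and 11.8, 7.28 and 3.04 on day 3, a log2-fold-change of -7.98 ± 0.81 (SE, n = 3 each, limma adjusted p = 7.51e-08). Its gene lies at chr6:34920163-34939344 on the + strand (mm10). Myo1f, an unconventional myosin of immune cells, had 1006, 883 and 896 before and 4.72, 3.3 and 5.3 after, a change of -7.43 ± 0.44. The day 0 libraries of both genes lay far above every day 3 library. Inhbb, the beta B subunit of activin and inhibin, had 638, 1220 and 1088 on day 0 and 9.78, 3.43 and 5.71 on day 3, with a change of -7.11 ± 0.48 and an adjusted p of 1.75e-10. The long non-coding RNA Halr1 changed by -7.80 ± 0.57 and the homeobox gene Cphx3 by -7.06 ± 0.89. Cphx3 had 3.84 and 5.5 in replicates 1 and 2 of day 3 but 66.5 in the third library, still far below its day 0 values of 1592 to 1930. Aard changed by -5.39 and Cd37, a tetraspanin of leukocytes, by -5.38. The other 5 of the 12 largest falls were Zscan4a, Zscan4b, Zscan4d, Zscan4-ps3 and Obox4-ps27, with changes of -5.30 to -5.87, which are close copies of each other or of neighbouring genes, so reads may have been split between them. All 12 were still called when day 0 replicate 1 was left out.

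The 12 largest rises include anterior neural and mesendoderm genes. Six3, a homeobox factor of the anterior neural plate and eye field at chr17:85613608-85629302 on the + strand (mm10), had 7.53, 8.2 and 8.63 normalized counts on day 0 and 709, 1198 and 889 on day 3, a change of 6.64 ± 0.25 (adjusted p = 3.77e-14). Foxd4, a forkhead factor of early neural ectoderm, had 1.4, 5.06 and 3.55 before and 581, 575 and 476 after, a change of 7.07 ± 0.32. Every day 0 library of both genes was under 10 normalized counts, far from every day 3 library. Irs4, an adaptor of insulin and IGF receptors, rose from 34.9, 38 and 41.7 to 1489, 2118 and 2011, by 5.57 ± 0.18. Ephb1, an Eph receptor of guidance and boundaries, rose from 34.4, 31.1 and 36.7 to 1759, 1729 and 1601, by 5.60 ± 0.31. Camk1g, a calcium and calmodulin-dependent kinase, rose from 3.1, 4.41 and 6.03 to 526, 509 and 472, by 6.55 ± 0.21. Several of the largest rises are known from other tissues. Ermn, of myelinating oligodendrocytes, had 0, 2.53 and 0 on day 0 and 156, 289 and 219 on day 3, and Aqp4, the water channel of astrocytes, had 4.19, 0 and 0.887 and then 153, 233 and 282. Krt80, an epithelial keratin, rose by 5.72 ± 0.52, Ldb2, a LIM-domain binding cofactor, by 5.86 ± 0.70, and Tceal6 by 5.41 ± 0.40. The remaining 2 are genes of mesendoderm and its signals. Cer1, a secreted antagonist of Nodal, BMP and Wnt, had 2.79, 1.27 and 3.55 and then 212, 155 and 104, and Aplnr, the apelin receptor, had 4.9, 1.11 and 17.9 and then 310, 251 and 220. All 12 were called without day 0 replicate 1 too, with changes of 4.84 to 7.30.

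**Figure D2:**
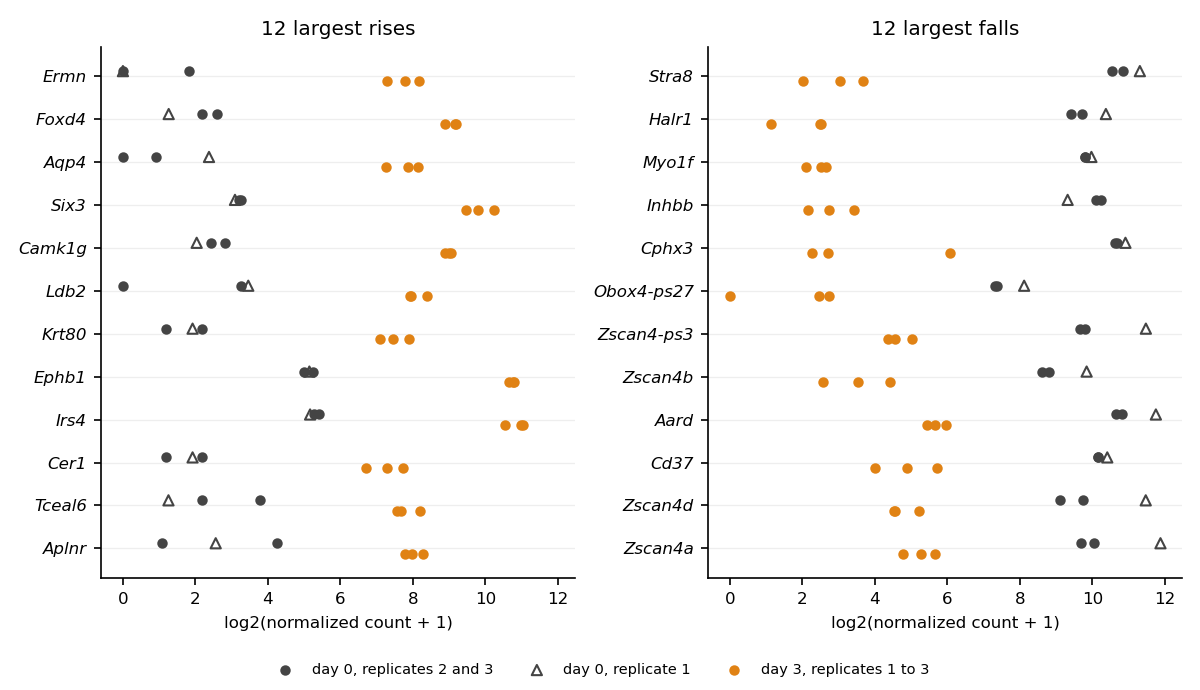
The 12 named genes with the largest rises (left) and the 12 with the largest falls (right), as log2(normalized count + 1) in each library (x axis). Open triangles are day 0 replicate 1, filled dark circles the other day 0 libraries and orange circles the 3 day 3 libraries. For every gene the days do not overlap, and day 0 replicate 1 lies to the right of the other day 0 libraries for Zscan4a, Zscan4d, Zscan4-ps3 and Aard, among others.

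Naive pluripotency genes fell almost as a group. Of a list of 20, 18 fell, none rose and 2 were not called, with a median change of -2.81 against -0.03 over all entries. The list still had 18 called lower with day 0 replicate 1 left out. Klf4, a Krüppel-like factor of the naive network and a direct LIF target, had 3934, 4826 and 3671 normalized counts on day 0 and 402, 418 and 334 on day 3, a change of -3.42 ± 0.21 (adjusted p = 3.28e-11). Gbx2, a homeobox gene downstream of STAT3, had 1932, 1712 and 1194 and then 68.7, 77.7 and 59.2, a change of -4.52 ± 0.29. Neither gene had a day 3 library near its day 0 range. Nr0b1, an orphan receptor of the naive state, changed by -3.32 ± 0.43, and Prdm14, which holds methylation and lineage genes down, by -3.25 ± 0.42. Zfp42, the marker also called Rex1, had 27036, 21804 and 19492 before and 2646, 2580 and 2744 after. Nanog, the homeobox factor central to the naive network, had 16790, 13467 and 11108 and then 2432, 3013 and 2952, a smaller change of -2.29 ± 0.20. The 2 members not called were Tdh, threonine dehydrogenase, with 6681, 15954 and 14249 and then 5092, 4799 and 4765 (-1.23 ± 0.38, adjusted p = 0.0115), and Dppa3, also called Stella, with 753, 322 and 328 and then 172, 206 and 227 (-1.10 ± 0.55, adjusted p = 0.116). Both had day 3 libraries below all day 0 libraries but did not reach the thresholds.

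The LIF receptor and its STAT3 targets fell likewise: 12 of 15 fell, none rose, and the median was -2.09, or -2.28 without day 0 replicate 1. This list overlaps the naive list: Gbx2, at -4.52, had the largest fall of both. Socs3, the feedback inhibitor that STAT3 induces, had 3933, 2411 and 2107 normalized counts and then 306, 200 and 170, a change of -3.63 ± 0.25. Bcl3, an IkB family protein and STAT3 target, had 1609, 1239 and 783 and then 57.3, 59.5 and 51.6, a change of -4.35 ± 0.33. Both genes were called with day 0 replicate 1 left out. Junb, an AP-1 factor, had 997, 1629 and 1457 and then 241, 173 and 154. Stat3 itself had 2547, 3460 and 3364 and then 981, 696 and 852, a change of -1.89 ± 0.15, and Lifr, the LIF receptor, changed by -1.90 ± 0.14. The receptor and the factor had smaller log2-fold-changes than Socs3, Bcl3, Gbx2 and Klf4.

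The 250 bases before the RefSeq starts of Socs3 and Bcl3 are shown because these genes had 2 of the largest falls of this list. They run 5′ to 3′ on the coding strand, which is the - strand for both, at chr11:117969367-117969616 for Socs3 and chr7:19822756-19823005 for Bcl3 (GRCm38.p6). Capitals mark matches to the STAT site TTCNNNGAA, which is the same on either strand.
Socs3: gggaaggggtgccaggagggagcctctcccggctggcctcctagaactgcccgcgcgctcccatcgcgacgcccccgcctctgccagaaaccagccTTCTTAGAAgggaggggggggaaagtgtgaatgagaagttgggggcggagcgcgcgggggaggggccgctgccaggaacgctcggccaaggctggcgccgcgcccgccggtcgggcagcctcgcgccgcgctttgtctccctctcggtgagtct
Bcl3: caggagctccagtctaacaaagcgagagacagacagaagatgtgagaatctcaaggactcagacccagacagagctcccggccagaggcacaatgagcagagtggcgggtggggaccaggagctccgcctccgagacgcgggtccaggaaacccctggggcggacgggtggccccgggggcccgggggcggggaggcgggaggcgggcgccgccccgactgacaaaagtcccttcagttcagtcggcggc
The Socs3 window held 1 match, whose left base lies 154 bases before the start, and the Bcl3 window none. The motif occurred in 2306 of 32851 mouse promoters of this length (7.02%) and in 2 of the 14 list members with a promoter in the table. A match describes letters only.

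The general pluripotency genes, which formative and primed cells also use, split. Of 19, 6 fell, 1 rose and 12 were not called, with a median of -0.59. Pou5f1, the POU factor also called Oct4, had 38139, 36593 and 35361 normalized counts on day 0 and 28985, 20854 and 19799 on day 3, a change of -0.68 ± 0.18 (adjusted p = 0.00388) that did not pass. Lin28a, an RNA-binding inhibitor of let-7 processing, had 17565, 17146 and 15193 and then 39580, 37320 and 36880, a change of 1.19 ± 0.11 that was under the fold-change threshold. Its relative Lin28b rose, from 1385, 959 and 910 to 3002, 4287 and 4873, by 1.90 ± 0.20. Day 3 libraries did not overlap day 0 libraries for any of these 3 genes. Dppa2, a chromatin protein of early embryos, fell from 7796, 9149 and 8363 to 554, 706 and 779, by 3.64 on the log2 scale. Tdgf1, the Nodal co-receptor Cripto, changed by -3.02 ± 0.39, and Dppa5a, an RNA-binding protein, by -2.77 ± 0.33. For Tdgf1 the 54446 normalized counts of day 0 replicate 1 stood above 23236 and 21575 in the others, and the change without that library was -2.59.

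Formative and primed epiblast genes were the main rise among the pluripotency lists. Of 20, 8 rose, 3 fell and 9 were not called, with a median of 1.32, or 1.02 without day 0 replicate 1. Fgf5, the ligand that marks the formative epiblast, had 329, 609 and 478 normalized counts and then 5326, 5309 and 5166, a change of 3.52 ± 0.21 (adjusted p = 2.4e-11). Pim2, a serine/threonine kinase, had 3581, 5889 and 4405 and then 64663, 54705 and 51722, a change of 3.65 ± 0.18. In both the day 3 libraries lay close together and far above day 0. Sox3, a SOXB1 factor shared by epiblast and neural plate, had 145, 352 and 162 and then 3022, 2524 and 2112, a change of 3.64 ± 0.23. Otx2, the factor of formative epiblast and anterior neural plate, rose from 3303, 3927 and 3350 to 12878, 14600 and 14689, by 2.00 ± 0.10. The 3 members that fell were Nodal, Etv4, a target of FGF signalling that went from 2720, 6882 and 5283 to 1004, 709 and 722, and Dnmt3l.

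The windows before Pim2 and Fgf5 are shown as 2 of the largest rises of this list. They lie on the + strand at chrX:7878056-7878305 and chr5:98253934-98254183 (GRCm38.p6), with capitals for the octamer ATGCAAAT or its reverse complement ATTTGCAT, the letters that POU factors such as Pou5f1 are known to bind.
Pim2: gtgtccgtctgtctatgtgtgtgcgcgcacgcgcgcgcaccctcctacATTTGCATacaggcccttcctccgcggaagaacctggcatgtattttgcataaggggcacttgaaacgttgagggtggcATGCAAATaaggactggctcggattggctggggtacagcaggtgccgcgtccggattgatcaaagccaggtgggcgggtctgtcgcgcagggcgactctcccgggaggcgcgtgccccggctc
Fgf5: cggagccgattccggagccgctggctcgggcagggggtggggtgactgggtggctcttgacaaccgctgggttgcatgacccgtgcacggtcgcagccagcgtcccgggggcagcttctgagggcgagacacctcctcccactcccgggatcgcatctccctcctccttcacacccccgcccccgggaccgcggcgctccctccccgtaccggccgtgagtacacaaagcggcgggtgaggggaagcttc
The Pim2 window held 2 matches, whose left bases lie 202 and 123 bases before the start, and the Fgf5 window none. The octamer occurred in 526 of 32851 promoters (1.6%), in 1 of 14 matched formative genes and in 2 of 14 matched naive genes.

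Genes of the 2-cell-like state, a rare state of ES cell cultures that expresses cleavage-stage genes, fell most as a list. Of 15, 13 fell and none rose, with a median of -4.06, or -3.58 without day 0 replicate 1. Zscan4d, of the telomere-protecting Zscan4 cluster, had 2846, 554 and 853 normalized counts and then 22, 22.7 and 36, and Zscan4a had 3773, 824 and 1048 and then 37.9, 26.2 and 49.3. Duxf3, the homeobox activator of this program, had 53.9, 38.7 and 32.7 and then 3.77, 0.945 and 2.56. Day 0 replicate 1 had the highest value for each of them, and its summed list was 24162 normalized counts against 7712 and 8733, while day 3 held 399 to 576. Without that library 9 members were called lower and the median was -3.58. Zscan4c and Zscan4f were then not called, with adjusted p of 0.00137 and 0.00175 and changes of -4.38 and -4.21. The cluster's members are near-identical, so values of single paralogs are uncertain.

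Germline genes that promoter methylation keeps silent in the body fell or were not called. Of 15 tested, 6 fell, 9 were not called and none rose, with a median of -1.46. Rpl10l, a testis paralog of a ribosomal protein, fell from 2255, 1782 and 1761 to 156, 161 and 171, by 3.56 on the log2 scale. Hormad1, of the meiotic chromosome axis, had 3559, 794 and 759 and then 52.2, 168 and 190, and changed by -3.43, or by -2.70 without day 0 replicate 1. Dazl, an RNA-binding protein of germ cells, had 842, 744 and 733 and then 109, 186 and 196, and Stk31, a germ cell kinase, changed by -2.83 ± 0.34. Taf7l, a germ cell TFIID subunit, changed by -2.42 and lost its call without that library (adjusted p = 0.00241). Sycp3, of the synaptonemal complex, had 4320, 346 and 389 and then 1759, 4885 and 4803: its groups overlapped and it was not called (2.05 ± 0.61, adjusted p = 0.00951), but it was called higher without day 0 replicate 1 (3.23, adjusted p = 1.88e-07). With 1 member called higher and 4 lower, the list's balance thus depended on that library.

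Of 12 genes of the machinery of DNA methylation 1 rose and 4 fell, with a median of -0.66. Among all entries tested 5.91% were higher and 6.12% lower. Dnmt3b, a de novo methyltransferase, had 8255, 32820 and 26991 normalized counts on day 0 and 141442, 123445 and 119697 on day 3, a change of 2.72 ± 0.29 (adjusted p = 1.66e-07). Without day 0 replicate 1, the lowest of the day 0 libraries, it was 2.10 with an adjusted p of 1.47e-12. Its relative Dnmt3a had 9536, 26926 and 24741 and then 13814, 11736 and 11580, so the groups overlapped through that library alone and it was not called. Dnmt3l, their catalytically inactive partner, fell from 20700, 18950 and 14666 to 3865, 3091 and 2777, by 2.48 on the log2 scale. Dnmt1, the maintenance enzyme, had 8898, 24969 and 19806 and then 16905, 15697 and 15203, a change of -0.04 ± 0.22 whose sign turned under quantile or trimmed-mean scaling. Among the proteins that oppose or guide methylation, Tet2, a 5-methylcytosine oxidase, fell from 1622, 2847 and 3576 to 340, 310 and 308. Zfp57, which protects imprints, fell from 10224, 13267 and 15952 to 1991, 2345 and 2552. Tet1 had 5424, 17220 and 23481 and then 5449, 4585 and 5396, and was called lower (-1.97) with day 0 replicate 1 left out, not with it (-1.34, adjusted p = 0.00197).

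Of 24 imprinted genes, which are read from the maternal or the paternal copy, 5 rose and 3 fell, beside 5.91% higher and 6.12% lower among all entries tested. The median of the imprinted genes, -0.08, was 0.08 under quantile scaling and 0.15 without day 0 replicate 1. Rian, a maternally expressed RNA of the Dlk1-Dio3 region, rose from 5944, 2662 and 3570 to 18266, 26472 and 27944, by 2.63 ± 0.26. Snrpn, a splicing protein gene read from the paternal copy, rose from 7484, 7372 and 6593 to 25557, 23777 and 24036, by 1.78 ± 0.09. Plagl1, a paternally expressed zinc finger, fell from 284, 155 and 204 to 24.8, 70.4 and 73.5. No reads tell the parental copies apart here.

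Nodal and Activin signalling had 9 of 14 members fallen and 1 risen, with a median of -2.82, or -2.67 without day 0 replicate 1. Among the ligands, Nodal had 2256, 4535 and 3737 normalized counts and then 525, 429 and 394 (-2.92 ± 0.29), Gdf3 had 3789, 3966 and 3839 and then 575, 559 and 616, and Inhbb fell as given above. Among the feedback antagonists, Lefty1 had 7901, 6265 and 5911 and then 179, 178 and 197, a change of -5.16 ± 0.25, and Lefty2 had 9269, 10912 and 8944 and then 330, 421 and 424, a change of -4.63 ± 0.34. Neither had a day 3 library near its day 0 range. Smad7, the inhibitory SMAD, had 1651, 3778 and 3709 and then 303, 455 and 315. The only member that rose was Cer1, which is also a marker of anterior endoderm and mesendoderm.

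Of 20 FGF ligands, receptors and ERK feedback genes 4 rose and 3 fell, with a median of -0.31. Among all entries tested 5.91% were higher and 6.12% lower. The ligands of ES cells fell, with Fgf4 going from 5751, 7655 and 6197 to 1676, 1721 and 1608 and Fgf17 from 339, 454 and 375 to 32.9, 24.9 and 25.5. Fgf5 rose as above and Fgf8, a ligand of epiblast, streak and anterior neural ridge, rose from 156, 81.9 and 111 to 505, 434 and 463. Among receptors, Fgfr2 rose from 1134, 799 and 880 to 3394, 4461 and 4078, by 2.09 ± 0.13. With day 0 replicate 1 left out, 3 members rose and 5 fell.

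Among Wnt targets and antagonists 6 of 20 rose and 2 fell, with a median of 0.93, or 0.70 without day 0 replicate 1. The secreted antagonist Frzb had 89.8, 13.5 and 12.1 and then 540, 649 and 433, and Sfrp1 had 757, 937 and 823 and then 4411, 5265 and 5032, a change of 2.55 ± 0.09. Sp5, a direct target of beta-catenin, had 39.1, 31.6 and 16 and then 305, 226 and 183. Notum, the antagonist that removes the Wnt lipid, went the other way, from 1560, 3330 and 3120 to 252, 354 and 316, as did Cdx1, from 46, 100 and 73.7 to 9.75, 0 and 1.89. Of 15 BMP pathway genes 2 rose and 2 fell, with a median of 0.16, beside 5.91% higher and 6.12% lower among all entries tested. The ligand Bmp4 fell from 1652, 2328 and 2212 to 511, 545 and 555, and the inhibitory Smad6 from 571, 685 and 556 to 214, 187 and 140. The target Id3 rose from 1226, 1503 and 1402 to 6590, 5277 and 4642, and Msx1, another target, from 89.2, 60.8 and 54.2 to 339, 239 and 207. Id2 had 1202, 268 and 250 and then 1057, 1170 and 1062, and was called higher only when day 0 replicate 1 was left out (2.08, against 1.34 with it).

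Of 20 forebrain and eye field genes, 8 rose before any gate existed, none fell and 12 were not called, with a median of 1.42. When day 0 replicate 1 was left out, 10 rose and the median was 1.72. After Six3, the largest rises with all libraries were those of Lhx5, a LIM-homeobox factor of the anterior neural plate, from 26.5, 16.5 and 11.5 to 306, 342 and 222 (3.98 ± 0.24), and of Hesx1, a repressor of the anterior neural border, from 118, 109 and 74 to 836, 1332 and 1108 (3.43 ± 0.19). Rax, which carries the GFP knock-in, had 26.5, 39.2 and 16.9 normalized counts on day 0 and 156, 89.3 and 101 on day 3, a change of 2.06 ± 0.25 (adjusted p = 1.18e-06). Its lowest day 3 library was above its highest day 0 library, at a level still near 100. Otx1, an Otx2 relative, rose from 6.64, 31.1 and 13.5 to 94.1, 105 and 92.5, and Fezf1, a forebrain zinc finger, from 4.19, 2.53 and 0.888 to 23.2, 26.1 and 11.4. Emx2, of the dorsal forebrain, was called (3.01 ± 0.66, adjusted p = 0.000831) although its groups overlapped, with 16.7, 0.779 and 0.546 and then 23.2, 61.5 and 15.8. The overlap came from day 0 replicate 1 alone, and without it the change was 4.15. Pax6, an eye-field and neural factor, had 367, 156 and 195 and then 114, 162 and 150, and was not called (-0.67 ± 0.24, adjusted p = 0.029).

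The pan-neural plate list had 7 of 20 risen and 4 fallen, with a median of 1.08, or 0.59 without day 0 replicate 1. Besides Sox3, Sox11, a SOXC factor of neural progenitors, rose from 1464, 894 and 772 to 7330, 9989 and 10226 (3.18 ± 0.21), and Nes, the intermediate filament nestin, from 1154, 1254 and 1011 to 4440, 3499 and 3427. Hes5, a Notch target of neural progenitors, rose from 29.6, 6.26 and 5.28 to 64.1, 74.7 and 38.9. The members that fell include Olig3, from 165, 34.2 and 40.8 to 3.66, 4.54 and 2.84, Nkx6-2, from 205, 168 and 109 to 18.7, 7.4 and 15.1, and Sox21, from 378, 416 and 323 to 77, 79.9 and 62.7. All 3 are factors of patterned or later progenitors, and all were detected on day 0. Midbrain and posterior neural genes had 5 of 20 risen and 4 fallen, with a median of 0.28, or 0.05 without day 0 replicate 1. Lmx1b, a LIM-homeobox factor of the mid-hindbrain region and roof plate, rose from 32.5, 79.2 and 85.3 to 1576, 1633 and 1394 (4.64 ± 0.28), and Pax2, of the midbrain boundary and optic stalk, from 6.31, 34.3 and 12 to 80.7, 86.8 and 85.7. Cnpy1, of the mid-hindbrain boundary, fell from 6653, 2169 and 2732 to 246, 303 and 348.

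Of 14 neuronal genes 2 rose, 1 fell and 11 were not called, beside 5.91% higher and 6.12% lower among all entries tested. Neurog2, a proneural factor, had 0, 1.27 and 1.78 normalized counts and then 25.6, 38.6 and 18, and Map2, a microtubule protein of dendrites, rose from 94.4, 172 and 141 to 472, 772 and 763. Tubb3, a neuronal tubulin also found in ES cells, fell from 4640, 5795 and 4791 to 1520, 1254 and 1164. Glutamate, neuronal surface and guidance receptors and ligands had 6 of 16 risen and 1 fallen, with a median of 1.14, or 0.61 without day 0 replicate 1. Sema6a, a transmembrane semaphorin, rose from 240, 415 and 411 to 4281, 4733 and 4921 (3.75 ± 0.18), Efna5, an ephrin, from 94.7, 61.3 and 37.8 to 644, 949 and 865, and Robo1, a Slit receptor, from 559, 1335 and 1102 to 3548, 4393 and 4457. Every day 3 library lay above every day 0 library for these 3. Nrp2, a semaphorin co-receptor, had 249, 1885 and 1572 and then 345, 385 and 351, and was called lower only without day 0 replicate 1 (-2.25, adjusted p = 5.35e-10).

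Most primitive streak markers rose over the same days. Of 14 primitive streak and mesendoderm genes, 9 rose and 2 fell, with a median of 2.12, or 1.90 without day 0 replicate 1. Their summed level was 1625 to 2948 normalized counts on day 0 and 3987 to 4112 on day 3, and no member was at 0 in all 6 libraries. T, brachyury, had 73.6, 89.3 and 60.8 and then 495, 508 and 512 (2.76 ± 0.29), Eomes had 499, 604 and 407 and then 1950, 2128 and 2236 (2.08 ± 0.29), and Mixl1 had 23.7, 35.4 and 24.9 and then 194, 345 and 295 (3.25 ± 0.46). Lhx1, of streak and anterior mesendoderm, had 11.1, 20.9 and 20.3 and then 451, 287 and 248, and Gsc, of the organizer, had 22.3, 21.5 and 6.22 and then 112, 97.8 and 100. Days did not overlap for these 5 factors. The 2 members that fell were Fgf17, with the values given above, and Cdx4, which changed by -2.94. Both were also called lower without day 0 replicate 1. Foxa2, of endoderm and node, had 158, 53.7 and 46 and then 188, 153 and 128, and was called only without day 0 replicate 1. Evx1, 1 of the 9 risen, had 8.92, 30 and 25.2 and then 113, 86.2 and 72. It was not called in that fit (limma adjusted p = 0.00665), so the count of risen members stayed at 9. How much cells with these markers add to the neural or Wnt values above was not tested.

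Among all entries tested 5.91% were called higher and 6.12% lower, which stands beside the counts of the 5 lists that follow. Primitive and visceral endoderm had 2 of 14 members fallen and none risen, at a median of -0.88, with Gata6 going from 789, 868 and 646 to 227, 285 and 175 and Sox7 from 574, 354 and 233 to 101, 92.3 and 43.7. Their summed level was 23419 to 37605 on day 0 and 10354 to 23542 on day 3. Ttr, of visceral endoderm, had 100, 2.53 and 2.67 and then 128, 96.6 and 38.5, and was called higher only with day 0 replicate 1 left out (4.46, adjusted p = 1.41e-07), and Sox7 lost its call there (adjusted p = 0.00204). Of 14 trophoblast genes 2 rose and 3 fell, with sums of 7321 to 14735 and 11855 to 14472. Krt18, a keratin of simple epithelia, rose from 3364, 868 and 657 to 5978, 4688 and 4650, and Tfap2c, an AP-2 factor also used by ES and germ cells, fell from 2301, 2577 and 2122 to 498, 399 and 429. Of 15 surface ectoderm and neural crest genes tested 4 rose and 4 fell, with sums of 12572 to 21312 and 20785 to 23494. Without day 0 replicate 1, 3 of them rose and 3 fell, and their median was 0.63 against 0.23 with it. Sox9, also a gene of neural progenitors, rose from 16.8, 31.6 and 16.9 to 303, 382 and 310, and Grhl3, of surface ectoderm, fell from 1569, 1886 and 1528 to 139, 142 and 125. Of 11 fibroblast genes tested 1 rose and 3 fell, with sums of 9387 to 18860 and 3030 to 4467: Vim fell from 11934, 10221 and 8141 to 2190, 1408 and 1410, Col3a1 from 112, 69.5 and 33.5 to 9.28, 12.9 and 6.39, and Thy1 rose from 139, 278 and 255 to 1318, 1019 and 815. Col3a1 was not called without day 0 replicate 1 (adjusted p = 0.00181). Of 9 endothelial genes tested 3 fell, with sums of 3310 to 5921 and 1660 to 1832. These were Pecam1, an adhesion protein that ES cells also make, from 1734, 4253 and 3709 to 619, 655 and 500, Esam, from 202, 326 and 285 to 38.6, 23.6 and 15.1, and Cdh5, whose fall from 183, 108 and 55 to 12.2, 42.2 and 16.2 was not called without day 0 replicate 1. No member of these 5 lists was at 0 in all 6 libraries.

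Of 19 junction and cadherin genes 5 rose and 1 fell, with a median of 0.74. Without day 0 replicate 1, 6 rose and 1 fell. Beside this list and the next 2, 5.91% of all entries tested were called higher and 6.12% lower. Cldn6, a tight-junction claudin of epiblast, rose from 2411, 1710 and 1250 to 9994, 8618 and 7798 (2.34 ± 0.19), and Itgb4, an integrin of hemidesmosomes, fell from 289, 1165 and 1096 to 210, 122 and 110. Cdh1, E-cadherin, had 6540, 23498 and 17109 and then 28483, 30552 and 29310, and was not called (1.09 ± 0.29, adjusted p = 0.00391). Of 17 matrix genes 2 rose and 1 fell, with a median of -0.88. Changes were positive in 3 of them, against 10081 of all 21005 entries tested. With day 0 replicate 1 left out 2 rose and 2 fell. The 2 risen with all libraries were Frem2, from 380, 472 and 426 to 3591, 3962 and 4112 (3.19 ± 0.13), and Fras1, from 42.2, 199 and 115 to 922, 860 and 890 (3.16 ± 0.35, or 2.55 without day 0 replicate 1), whose proteins act together in the basement membrane. Nid1, nidogen, fell from 2123, 4819 and 3341 to 894, 1014 and 806. Among 19 actin, SRF and YAP targets 6 fell and none rose, with a median of -0.66, or -0.13 without day 0 replicate 1, where 4 fell and 1 rose. Acta2, smooth-muscle actin, had 5105, 92.4 and 74.6 and then 12.2, 12.4 and 9.44, so its change of -4.75 ± 0.95 was -2.77 without that library. Tagln, another SRF target, had 4342, 190 and 189 and then 99.3, 66.6 and 49.2, and was called neither with it nor without it. Cnn1, calponin, had 579, 78.5 and 58.3 and then 506, 342 and 355, and was called higher only without it (2.53, adjusted p = 5e-08). Ccn2, a YAP target, was called lower with it (-1.89) and not without it (-1.41). Anxa1, annexin A1, fell from 969, 216 and 223 to 21.1, 20.1 and 34.8, and Lmna, which encodes the A-type lamins, from 2097, 2242 and 1722 to 550, 376 and 282.

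The counts for metabolic and housekeeping lists are a description, beside shares over all entries tested of 5.91% higher and 6.12% lower. Of 20 glycolysis genes 1 rose, Eno2, from 191, 100 and 134 to 464, 394 and 489, and Aldoc was called higher too when day 0 replicate 1 was left out. Of 20 nuclear genes of the respiratory chain 1 fell, Cox7a1, from 922, 393 and 388 to 136, 143 and 120. None of the 13 mitochondrially encoded genes was called by limma. mt-Co1 had 846415, 353088 and 340074 and then 287292, 807026 and 613496, a change of 0.16 ± 0.34 (adjusted p = 0.736) that was -0.29 under quantile scaling. Of 21 genes of cholesterol synthesis and the sterol response 20 had positive changes, with a median of 0.70, but only 1 was called, higher. Slc2a1, the glucose transporter GLUT1, had 58877, 29157 and 21417 and then 74410, 68599 and 64302, a change of 1.05 ± 0.21 under the fold-change threshold. Of 19 hypoxia genes 2 fell, Adm, adrenomedullin, from 625, 224 and 170 to 27, 16.3 and 16.3, and Ankrd37, from 1259, 413 and 302 to 114, 135 and 113. For Cox7a1, Adm and Ankrd37 day 0 replicate 1 was the highest library, and all 3 were also called without it. No gene of the amino acid response list (18) was called, with a median of -0.42. In the oxidative stress list (15) only Srxn1 fell, from 4447, 2443 and 2678 to 1088, 912 and 1074, and it was not called without day 0 replicate 1.

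The counts for lists of cell state stand beside 5.91% higher and 6.12% lower among all entries tested. Of 19 cell cycle genes 1 rose, Mycl, from 555, 1068 and 904 to 3037, 2322 and 1942, and 2 fell, the inhibitors Cdkn2b, from 215, 98.7 and 103 to 40.2, 29.3 and 19.8, and Cdkn2a, from 618, 224 and 212 to 89.6, 83.2 and 67.7. Mycl and Cdkn2a were not called without day 0 replicate 1. Of 16 genes of the p53 response and cell death, Mcl1, an anti-apoptotic BCL2 relative, fell from 24635, 28529 and 25024 to 8309, 7254 and 6975, Fas, a death receptor, from 39.4, 17.3 and 13.7 to 8.9, 3.32 and 3.44, and Bcl2 rose from 78.4, 23.7 and 29.6 to 95.4, 137 and 144. Fas was not called without day 0 replicate 1 (-1.52, adjusted p = 0.00492). Of 16 immediate early genes Junb and Nr4a1 fell, the latter from 1260, 2490 and 1785 to 541, 493 and 492. In the fit without day 0 replicate 1, 5 of these fell, among them Egr1, which had 276, 2142 and 2806 and then 467, 282 and 341. Of 16 MHC class I and interferon genes Ifitm3 fell from 3054, 2386 and 1836 to 503, 384 and 386, and B2m, the MHC class I light chain, with 1344, 280 and 230 and then 845, 1125 and 1126, was called higher only without that library. Of 18 Polycomb and chromatin genes 2 rose, Smarca2, the BRM ATPase, from 175, 87.1 and 83.5 to 704, 939 and 932 (2.96 ± 0.20), and Hdac9, a deacetylase, from 47.2, 83.7 and 73.7 to 326, 467 and 480. The 38 lists held 595 distinct genes, of which 590 were tested and 184 were called.

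**Figure D3:**
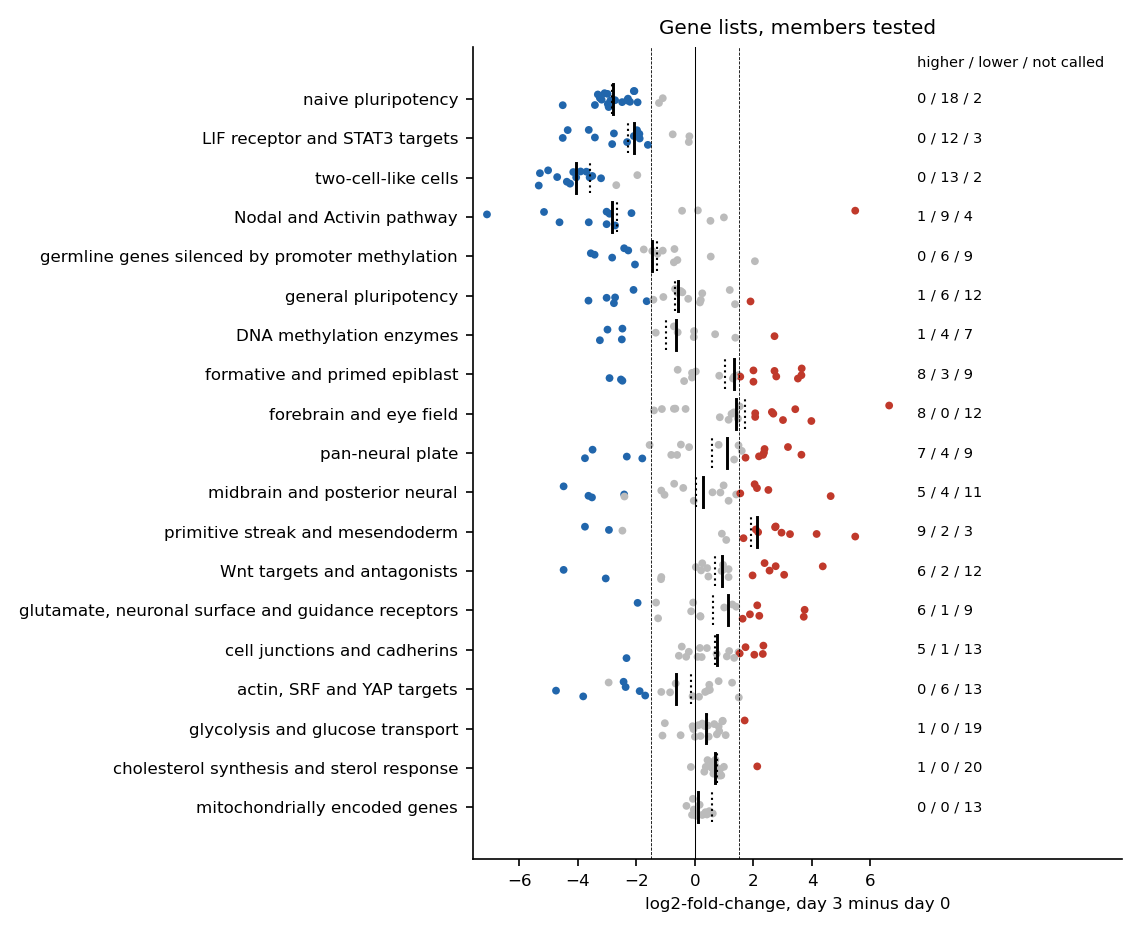
Log2-fold-change, day 3 minus day 0 (x axis), of every tested member of 19 of the lists. Each point is a gene, in red or blue where called higher or lower. Vertical bars are list medians, dotted marks the medians without day 0 replicate 1, and dashed lines the threshold of 1.5. Naive, LIF, 2-cell-like and Nodal lists lie mostly left of the threshold, and the mitochondrially encoded genes all lie inside it.

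Days 1 and 2 show how the net change built up, as a description with no test. Of the 1241 risen entries, the largest daily step of the group means was from day 0 to day 1 in 278 (22.4%), from day 1 to day 2 in 626 (50.4%) and from day 2 to day 3 in 337 (27.2%). Of the 1286 fallen ones it was 239 (18.6%), 623 (48.4%) and 424 (33%). All 3 steps had the direction of the net change in 829 risen (66.8%) and 939 fallen entries (73%). In 574 of the risen (46.3%) and 516 of the fallen (40.1%) each of these steps was also under 1.5, so that no step alone reached the fold-change threshold. Without day 0 replicate 1 these were 562 and 516.

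Among the slow rises, Fam163b had day 0 libraries of 47.5, 50.6 and 49.7 normalized counts, day 1 and day 2 means of 117 and 308, and day 3 libraries of 576, 598 and 560. Cadm3, a synaptic adhesion protein, had 28.6, 77.7 and 47.3, then means of 107 and 288, then 851, 678 and 713. Unc5a, a netrin receptor, had 58.3, 60.3 and 29.1, then means of 89.3 and 237, then 677, 568 and 472. Their net changes were 3.53 ± 0.15, 3.95 ± 0.22 and 3.57 ± 0.22. Cttnbp2, a cortactin-binding protein, and Lbh, a transcriptional cofactor, had net changes of 3.54 and 3.53. For all but Unc5a among these 5, the lowest day 0 value was that of replicate 1, and without it the changes were 2.70 to 3.72 and all were called. Among the slow falls, Lgals3, galectin-3, had 1797, 1656 and 1498, then means of 837 and 347, then 184, 126 and 110. Icam1, an adhesion receptor, had 3938, 4074 and 3490, then 1441 and 651, then 457, 362 and 332. Their net changes were -3.58 ± 0.40 and -3.33 ± 0.19. Wdr20rt, a testis WD-repeat gene, Mep1b, a metalloprotease, and Pou4f2, a POU factor best known from retinal ganglion cells, changed by -3.43, -3.35 and -3.30, and Hormad1 belongs to this class too. Pou4f2 had 120, 158 and 131 on day 0 and 9.78, 11.4 and 19 on day 3.

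Other genes followed other courses. Six3 had means of 7.67 on day 1 and 23 on day 2, and Hesx1 had 128 and 84.7, so most of their rise fell between day 2 and day 3. Rax had 13.5 and 12, and T had 32.5 and 47.1, both below their day 0 means before the rise. Klf4 had 1310 and 469, a fall mostly before day 2, and Nanog had 5234 and 1726, lower on day 2 than the 2799 ± 319 (SD, n = 3) of day 3. Fgf5 had 1984 and 4733 and Dnmt3b 72073 and 127954, close to their day 3 levels by day 2. Otx2 had 9096 and 9959. Nr0b1, in contrast to Klf4, still had 2962 on day 1, and Tdh had 17059, above its day 0 mean.

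**Figure D4:**
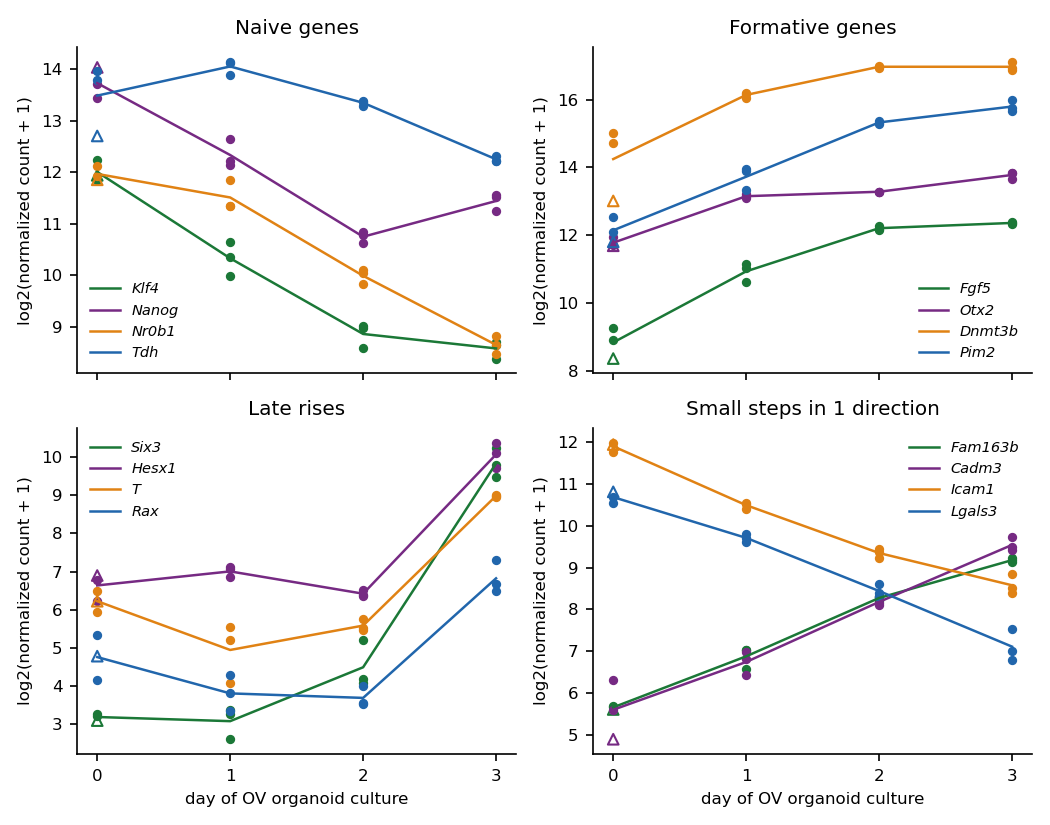
Log2(normalized count + 1) on days 0, 1, 2 and 3 (x axis) for 4 groups of genes, with points for libraries, open triangles for day 0 replicate 1 and lines through the means of 3 libraries. Klf4 and Nanog fall and the formative genes rise mostly by day 2, Six3, Hesx1, T and Rax rise between days 2 and 3, and the genes of the last panel move by similar steps each day.

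The gate that exists from day 4 on was compared with the net change in libraries that the day 3 and day 0 comparison did not use. The gates of day 4 (3 libraries each) differed in 69 entries higher in GFP-positive cells, 0.328% of those tested, and 763 lower, 3.63%. Of the 1241 risen entries, 11 were higher in GFP-positive cells, 0.886% of the risen and 15.9% of the 69, and 97 were lower, 7.82% of the risen and 12.7% of the 763. Of the 1286 fallen entries, 11 were higher, 0.855% of the fallen and 15.9% of the 69, and 226 were lower, 17.6% of the fallen and 29.6% of the 763. The share of fallen entries lower in GFP-positive cells was thus 17.6% beside 3.63% of all tested, and their median gate difference was -0.81, against 0.10 for the risen. Without day 0 replicate 1 the 4 counts were 15, 102, 12 and 242. The count of fallen entries higher in GFP-positive cells was 7 when day 3 replicate 2 or 3, any GFP-positive library or GFP-negative replicate 2 was left out, and 1 with only the libraries of each comparison or in the test against the fold-change threshold. It was 36 with library weights.

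The 11 risen entries higher in GFP-positive cells were Rax, Six3, Six3os1, Shisa2, Fzd1, Lmo3, Pex5l, Maob, Lrrtm3, Grem1 and Slc8a3. Rax is the gene the gate reads, with 975 ± 38.4 (SD, n = 3) normalized counts in GFP-negative and 9559 ± 436 in GFP-positive cells. Six3 had 3821 ± 860 and 12815 ± 533, a gate difference of 1.77 ± 0.25 (SE, adjusted p = 2.13e-05). Six3os1 is transcribed opposite Six3, and since the strand setting of the counting is not stated their reads may not be told apart. Shisa2, which holds FGF and Wnt receptors in the cell, had 8627 ± 513 and 25153 ± 36.7, and Fzd1, a Wnt receptor, 1253 ± 109 and 4606 ± 137. Grem1, a secreted BMP antagonist, had 432 ± 38.2 and 2089 ± 143, and Lmo3, a LIM-only protein, 90.3 ± 11.3 and 443 ± 18.2. Among the risen entries lower in GFP-positive cells were the streak genes T, Eomes, Mixl1, Lhx1 and Cer1, the Wnt target Sp5, and Krt80. The 11 fallen entries higher in GFP-positive cells belong to 9 genes, with Rapsn and Stk32c listed again, with the same values, on patch sequences. Plagl1 and Phlda1 had fallen by day 3 and stood at 736 ± 97.3 and 2818 ± 165 in GFP-positive cells, against 145 ± 37.3 and 543 ± 129 in GFP-negative cells. Edn1, endothelin-1, had 163 ± 42.6 and 1402 ± 177, and Vit, vitrin, 3.87 ± 0.745 and 108 ± 19.6. Grm2, Mobp and Gbx1 were the others. Without day 0 replicate 1 the falls of Vit (adjusted p = 0.0016) and Stk32c (-1.45) and the rise of Lrrtm3 (1.68, adjusted p = 0.00154) were not called.

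Leaving out day 0 replicate 1 changed which entries were called more than how many. Of the 1241 risen entries 1077 were called in both fits, 164 were lost and 253 gained, and of the 1286 fallen 1062 were called in both, 224 lost and 214 gained. No called entry changed direction. Of the 184 called list members 162 kept their call, 22 lost it and 20 others gained one. Genes at which this library stood far from the other day 0 libraries include Acta2, Sycp3, Ttr, B2m and Dnmt3b, whose values are given above. Further called genes moved by over 1.5-fold without losing the call. Smaller changes were found for Zscan4-ps3 (-5.07), Zscan4d (-4.66), Zscan4a (-4.63), Olig3 (-3.05), Anxa1 (-3.11), Edn1 (-2.43) and Ankrd37 (-1.55). Larger ones were found for Aqp4 (7.30), Ldb2 (6.47), Frzb (5.28), Grm2 (-3.98), Hes5 (3.11), Itgb4 (-2.99) and Krt18 (2.74), among others. Of 163 called genes followed under each alternative, 139 were called in each of the 6 fits that left out a day 0 or day 3 library. Only 69 were called under every alternative. With the fits of 6 or 5 libraries and the test against the fold-change threshold set aside, 138 were called under all the others.

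**Figure D5:**
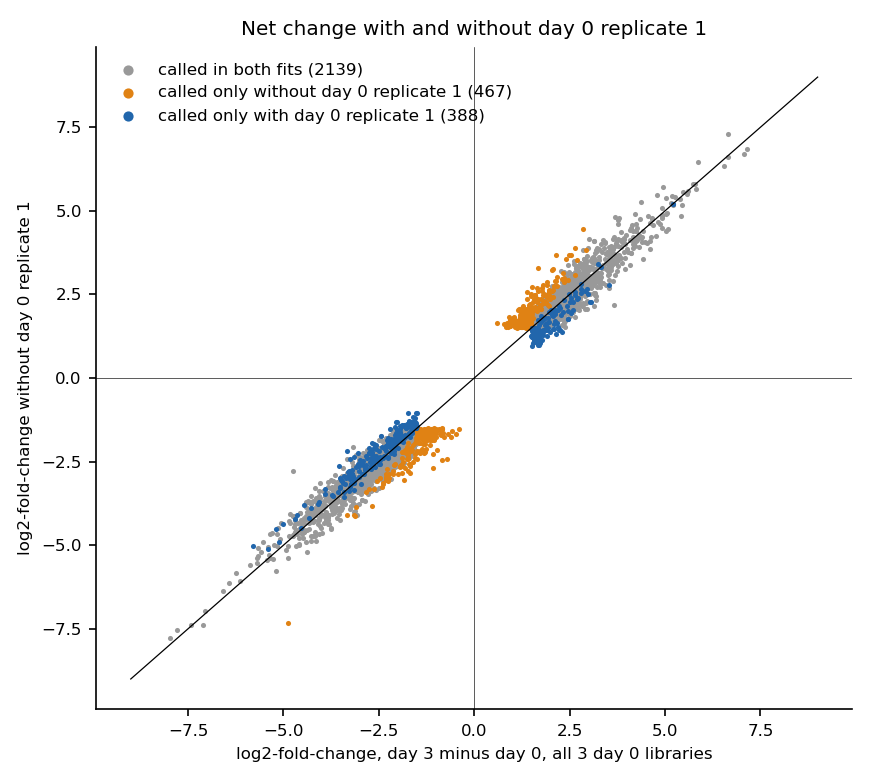
Log2-fold-change, day 3 minus day 0, with all 3 day 0 libraries (x axis) and without day 0 replicate 1 (y axis) for entries called in at least 1 of the fits. Grey points were called in both (2139), orange points only without that library (467) and blue points only with it (388). All lie in the quadrants where both changes have the same sign.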

How the data were processed

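RNA-seq libraries of 3 replicates in each of 8 groups were described by their labels, and replicate numbers were taken from them. The authors deposited a normalized signal for each gene entry. Per the labels and the study's methods, reads were pseudo-aligned with kallisto 0.43.1 to Ensembl coding and non-coding RNA (mm10), and DESeq2 (version not given in the sources used here) divided the estimated counts by size factors. The strand setting and the treatment of reads shared by similar genes are not given in the sources used here, which makes antisense genes and close paralogs uncertain. Whole reads were not recovered (56.4% to 75% of low values in the libraries of days 0 and 3 were near a whole multiple of 1 read), so no count model was run. The estimated depth limits mostly genes with few reads. Columns of the authors' own gene classes were not used. All columns of libraries could be matched to a sample (0 unmatched).

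Values were transformed as log2(value + 1), filtered at 10 in at least 3 libraries and fitted in R 4.3.3 with limma 3.58.1 (linear model, contrast and moderated test with a mean-variance trend), all 24 libraries together and no block. Adjusted p are Benjamini-Hochberg within a contrast, over all 21005 entries tested. Residual SDs had a median of 0.308 in log2 units. The contrast of day 4 gates shares no library with the net change but shares the fit's estimate of the spread. Tables were made in Python 3.11.15 (pandas 2.3.3, numpy 2.4.6, matplotlib 3.10.9), and the fit was checked on simulated libraries made with known changes.

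The 2 groups, the gene lists and the tests were chosen with earlier results of these data known. Named genes were the 12 largest rises and falls with groups that did not overlap and a mean of at least 100 in the higher group, up to 4 called and 2 uncalled members of each list (the uncalled with the highest mean), and the 6 largest rises and falls among genes whose daily steps all had the direction of the net change and were under 1.5. A few of the genes so chosen are not reported here. Of the 183 genes in the text that were also followed under each alternative, 47 lie outside this rule. They were named after their values were seen, as were Six3os1, Rapsn, Stk32c, Evx1 and Cdx4. Most are further members of the lists (such as Nanog, Zfp42, Stat3, Lifr, Otx2, Dnmt3l, Rax, T, Eomes and Tagln), genes whose call changed without day 0 replicate 1, or genes shared with the day 4 gate. Promoter windows are the 250 bases before the start of each gene in RefSeq (GRCm38.p6, the build of the files), and each gene shown had 1 window in the table.

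The alternatives changed the pseudocount (0.5 or 5), the low-value filter (none or 50), the scaling (quantile or trimmed mean), the trend, the libraries in the fit, their weights, the thresholds, the null hypothesis (a change of at most 1.5), the block (the replicate number), and left out each library in turn. The fit of 5 libraries was added after the data were seen.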

Additional observations from a re-analysis of the deposited data

How the results depend on the processing

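None of the 163 called genes that were followed under each alternative changed direction in any of them, but only 69 kept the call in all. Fits of only the libraries compared gave 263 genes higher and 293 lower (700 and 682 without day 0 replicate 1), and the test against the fold-change threshold gave 508 and 545. The cause was not tested, beyond the stricter hypothesis of the last. The other alternatives kept both counts within 1.5 times, and those that left out a library gave 1114 to 1330 higher and 1063 to 1276 lower. The replicate numbers did not pair the libraries: same-numbered day 0 and day 3 libraries deviated with correlations of -0.15, -0.096 and 0.044. In the fit with a replicate block, 1217 genes were higher and 1232 lower, and in the day 4 gate risen genes were higher in 12 and lower in 94 and fallen genes higher in 9 and lower in 209.

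The counts shared with the day 4 gate depended more on the settings. For risen genes higher, risen lower, fallen higher and fallen lower in GFP-positive cells they were 3, 16, 1 and 14 with only the 6 libraries of each comparison, and 30, 168, 36 and 360 with library weights. They were 33, 170, 21 and 450 at an adjusted p under 0.05, and 0, 22, 1 and 45 in the test against the threshold. At a log2-fold-change over 1 the first 3 were 41, 150 and 21, and a pseudocount of 5 gave 7 fallen genes higher. Leaving out a library gave 8 to 16, 80 to 102, 7 to 12 and 163 to 242. The count of 7 came from leaving out day 3 replicates 2 or 3, any GFP-positive library or GFP-negative replicate 2. The cause was not tested.

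Of genes not called, Dnmt1 changed by 0.04 under quantile and 0.03 under trimmed-mean scaling and by -0.48 to 0.26 without a library, and mt-Co1 by -0.29 under quantile scaling and by -0.15 to 0.59 without a library. Calls of Bcl2, Cdh5, Col3a1, Emx2, Eno2, Fas, Gata6, Hes5, Itgb4, Lrrtm3, Sox7, Vit, Taf7l, Acta2, Cdkn2a, Cdkn2b, Dppa2, Mycl, Slc8a3, Srxn1, Ccn2, Zscan4b, Zscan4c and Zscan4f were lost when at least 1 library was left out, and Tagln was called without day 0 replicate 2 or 3. Genes of a few reads are those that depth limits.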
